A study of Mus musculus with 8 samples.

Results

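The astrocyte genes described here were 10 genes by which astrocytes are commonly recognised: Gfap, Aqp4, Slc1a2, Slc1a3, Gja1, Gjb6, Aldh1l1, Glul, S100b and Sox9. They were taken by symbol from a table of 55032 genes, each symbol matched 1 row, and all 10 were among the 18294 genes with enough reads to be tested. The tissue was striatum of females of the C57BL/6 strain at P60, 4 of them WT and 4 16p11.2+/-, with 1 library of total RNA for each animal. The 16p11.2+/- mice carry 1 intact copy of a chromosome 7 segment that matches human 16p11.2, in every cell of the body, and the labels name no treatment. The comparison asked whether RNA of astrocyte genes differs between WT and 16p11.2+/- striatum. Mice are named as in their labels, in which DF stands for 16p11.2+/-, and values are always given in the order WT-1015, WT-1041, WT-1061 and WT-1063, then DF-1018, DF-1037, DF-1059 and DF-1062.

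Astrocytes are the glial cells that take up glutamate and potassium after neuronal firing, turn glutamate into glutamine, couple to each other through gap junctions and wrap blood vessels with water channel-rich endfeet. Gfap is the intermediate filament best known for its rise in reactive astrocytes, and in undisturbed striatum many astrocytes hold little GFAP protein while they hold much of the glutamate transporters. Striatal tissue is a mix of neurons, glia and vessel cells, so in these bulk libraries fewer astrocytes and less RNA per astrocyte cannot be told apart.

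Read totals on genes were between 15125051 and 16387993 in WT mice and between 15240680 and 16523429 in 16p11.2+/- mice. Of 8 genes of the deleted segment, 7 were called lower in 16p11.2+/- mice, with a summed level of 749 to 833 counts scaled to library size (CPM) against 1525 to 1568 in WT mice. The 8 libraries did not hold equal parts of other tissue. The summed CPM of 6 thalamic neuron genes was 75.4, 105, 49.7 and 772 in WT mice and 443, 844, 79.0 and 536 in 16p11.2+/- mice, so 1 WT mouse and 3 16p11.2+/- mice were high. The summed CPM of 6 choroid plexus genes was 661, 28.8, 40.8 and 5893 in WT mice against 41.4 to 186 in 16p11.2+/- mice, and that of 6 cortical glutamatergic neuron genes was 115 to 553 against 60.2 to 755. The summed CPM of 8 medium spiny neuron genes, which define the main neurons of striatum, was 2376 to 4019 in WT mice but 3706, 907, 3465 and 698 in 16p11.2+/- mice. The summed CPM of 10 myelinating oligodendrocyte genes was 12211 to 14090 in WT mice and 7599 to 10661 in 16p11.2+/- mice, without overlap. No gene of these 5 lists was at 0 counts over the 8 mice.

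None of the 10 astrocyte genes passed the adjusted threshold of 0.05 in edgeR's quasi-likelihood test, in which 20 of all genes tested, or 0.109%, did (17 lower and 3 higher in 16p11.2+/- mice). None had an unadjusted p under 0.05 either, against 4.32% of all genes tested, and for none did the FPKM values of the groups stand apart, against 2.83%. DESeq2, limma-voom and limma-trend also called 0 of the 10. FPKM is the read count scaled to gene length and to the total of the library. It allows levels of different genes to be compared as far as the length used fits the transcripts made. The log2 fold change (16p11.2+/- against WT) was above 0 for 6 genes and below 0 for 4, with a median of 0.04 beside -0.01 over all genes tested. Each of the 10 intervals held 0, and each excluded a fold of 0.5 and a fold of 2. The widest limits were a fold of 0.564 for Gfap and of 1.43 for Gjb6. The adjusted p-values were between 0.859 and 0.949, and the exact permutation p-values of FPKM were between 0.114 and 0.686, where 4 mice against 4 allow a smallest p of 0.0286.

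**Figure D1:**
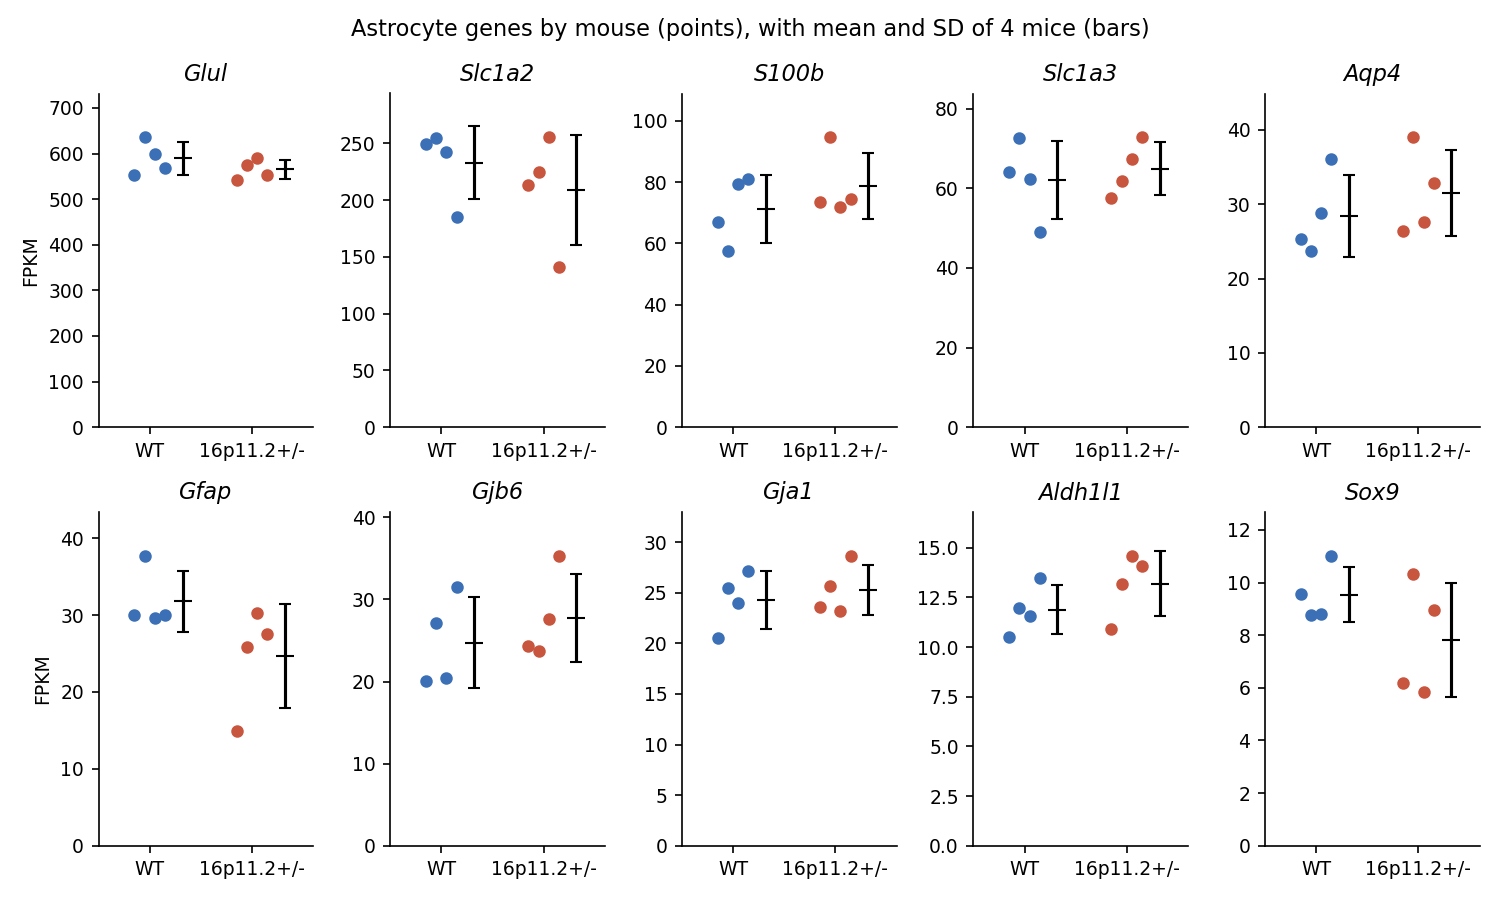
FPKM of the 10 astrocyte genes (vertical axes, each from 0) in WT and 16p11.2+/- striatum, with 1 point per mouse and a bar for the mean and SD of 4 mice. The groups overlap in every panel, and Gfap in DF-1018, at 14.9, lies farthest below the other mice of its panel.

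Glutamate uptake and conversion held the most abundant members. Glul encodes glutamine synthetase, which makes glutamine from glutamate and ammonia, and lies on chromosome 1 from 153899944 to 153909723 on the plus strand (ENSMUSG00000026473; GENCODE M21, GRCm38, as for every gene position here). Its FPKM was 554, 636, 600 and 568 in WT mice and 543, 576, 590 and 553 in 16p11.2+/- mice. The values lay close together, and 2 16p11.2+/- mice fell just below all WT mice. The mean was 589 ± 36.6 (SD, n = 4 WT mice) and 565 ± 21.6 (SD, n = 4 16p11.2+/- mice), with a log2 fold change of -0.08 (standard error 0.10, edgeR adjusted p = 0.880). Glul was the steadiest member, with a highest value only 1.17 times the lowest over 8 mice.

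Slc1a2 encodes the main glutamate transporter of forebrain astrocytes and lies on chromosome 2 from 102658659 to 102790784 on the plus strand (ENSMUSG00000005089). Its FPKM was 249, 255, 243 and 185 in WT mice and 213, 225, 256 and 141 in 16p11.2+/- mice. The lowest mouse of either group, WT-1063 and DF-1062, was well below its group, and the groups overlapped over most of their range. The mean was 233 ± 32.3 (SD, n = 4 WT mice) and 209 ± 48.4 (SD, n = 4 16p11.2+/- mice), with a log2 fold change of -0.17 (standard error 0.21, edgeR adjusted p = 0.878). Without DF-1062 the log2 fold change was 0.00037. With the thalamic marker score as a covariate it was -0.011 (edgeR unadjusted p = 0.960), and with the oligodendrocyte marker score it was 0.25 (edgeR unadjusted p = 0.319).

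Slc1a3 encodes GLAST, the second astrocyte glutamate transporter, best known from cerebellar and radial glia, and lies on chromosome 15 from 8634124 to 8710764 on the minus strand (ENSMUSG00000005360). Its FPKM was 64.2, 72.7, 62.4 and 49.1 in WT mice and 57.7, 61.8, 67.3 and 72.9 in 16p11.2+/- mice. WT-1063 was lowest, as it was for Slc1a2 within WT, while DF-1062, the lowest of all for Slc1a2, was at the top together with WT-1041. The mean was 62.1 ± 9.78 (SD, n = 4 WT mice) and 64.9 ± 6.62 (SD, n = 4 16p11.2+/- mice), with a log2 fold change of 0.04 (standard error 0.13, edgeR adjusted p = 0.949). Without WT-1063 it was -0.060, and with the thalamic score as a covariate it was 0.18 (edgeR unadjusted p = 0.165).

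The ratio of Slc1a2 to Slc1a3 FPKM was 3.88, 3.51, 3.89 and 3.78 in WT mice and 3.69, 3.64, 3.80 and 1.94 in 16p11.2+/- mice. It held between 3.51 and 3.89 in 7 of 8 mice, and DF-1062 alone stood apart. The ratio did not differ beyond the spread between mice (exact permutation p = 0.343).

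The sequence just before the RefSeq start of these 3 glutamate genes is shown. The reason is that Glul and Slc1a2 had the highest Pearson's r between mice among members with a RefSeq promoter entry, while Slc1a3 did not go with them. By Spearman's rho, and without 2 mice, Gja1 and Gjb6 were higher (the correlations follow after the levels). Each run is the 250 bases before the RefSeq start on GRCm38.p6, read 5′ to 3′ on the gene's strand, with capitals at 4 motifs searched on both strands, TATAAA for the TATA box, CCAAT for the box of that name, GGGCGG for the GC box and AACAAT as a core bound by SOX proteins; no match of 2 motifs overlapped. The windows are chr1:153899679-153899928 (plus strand), chr2:102706188-102706437 (plus strand) and chr15:8710808-8711057 (minus strand).
Glul: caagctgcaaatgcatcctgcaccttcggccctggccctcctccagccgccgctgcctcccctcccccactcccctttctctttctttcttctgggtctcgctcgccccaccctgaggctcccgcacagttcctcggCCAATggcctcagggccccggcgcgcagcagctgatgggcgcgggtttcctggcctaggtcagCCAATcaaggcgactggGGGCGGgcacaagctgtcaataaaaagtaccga
Slc1a2: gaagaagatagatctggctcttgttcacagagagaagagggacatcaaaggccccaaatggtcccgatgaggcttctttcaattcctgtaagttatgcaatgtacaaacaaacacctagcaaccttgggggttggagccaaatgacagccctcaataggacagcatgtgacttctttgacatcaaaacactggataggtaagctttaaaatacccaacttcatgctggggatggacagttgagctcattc
Slc1a3: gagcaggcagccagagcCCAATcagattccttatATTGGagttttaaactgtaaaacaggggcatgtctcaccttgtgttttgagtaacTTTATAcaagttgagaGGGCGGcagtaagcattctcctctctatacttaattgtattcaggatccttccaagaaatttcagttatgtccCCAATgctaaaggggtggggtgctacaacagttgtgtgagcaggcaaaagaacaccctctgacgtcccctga
The Glul window had a GC content of 64.8% with 15 CpG, and held CCAAT at -113 and -50 and GGGCGG at -33 from the start. The Slc1a2 window, which lies inside the longer GENCODE gene, had a GC content of 44.8% with 1 CpG and none of the 4 motifs. The Slc1a3 window had the same GC content with 2 CpG and held 5 matches, which were CCAAT at -233 and -72 and, on the other strand, at -216, GGGCGG at -145 and TATAAA on the other strand at -161. Over 32851 promoters of the same length the median GC content was 52.4% with 6 CpG, and 12.4% held TATAAA, 33.8% CCAAT, 32.7% GGGCGG and 9.42% AACAAT. Of the 10 members, 8 matched an entry, and Sox9 and Aqp4 did not. A match names letters in the window and not a bound site.

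Of 19 tested genes of a wider list of 20 on glutamate and glutamine handling, 0 passed the adjusted threshold and 1 was lower at an unadjusted p under 0.05, which is 5.26% beside 4.32% of all genes. The median log2 fold change of the list was 0.08. That gene was Slc38a2, a neutral amino acid transporter that carries glutamine, with an FPKM of 23.4, 27.8, 26.8 and 25.8 in WT mice and 23.6, 22.4, 22.3 and 23.7 in 16p11.2+/- mice (log2 fold change -0.19, edgeR unadjusted p = 0.0305, adjusted p = 0.859). Slc38a1, a related glutamine carrier, had a log2 fold change of 0.29 (unadjusted p = 0.0661).

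The water channel of the endfeet, Aqp4, lies on chromosome 18 from 15389496 to 15410982 on the minus strand (ENSMUSG00000024411). Its FPKM was 25.3, 23.7, 28.8 and 36.1 in WT mice and 26.4, 39.0, 27.5 and 32.8 in 16p11.2+/- mice. The 3 highest values came from WT-1063 and DF-1037 and DF-1062, and the groups overlapped. The mean was 28.5 ± 5.50 (SD, n = 4 WT mice) and 31.5 ± 5.77 (SD, n = 4 16p11.2+/- mice), with a log2 fold change of 0.12 (standard error 0.16, edgeR adjusted p = 0.887). With the thalamic marker score as a covariate the log2 fold change was -0.048.

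Among 17 tested genes of a list of 26 on endfeet, aquaporins and their anchors, 0 passed the adjusted threshold, and Trpv4 and Lama2 were lower at an unadjusted p under 0.05 (11.8% of those tested, beside 4.32% of all genes). Trpv4, a calcium-permeable channel also made by choroid plexus, had an FPKM of 1.30, 0.560, 0.569 and 6.91 in WT mice and 0.644, 0.767, 0.619 and 0.371 in 16p11.2+/- mice. WT-1063, which had the most choroid plexus RNA, carried the high Trpv4 value while the other 3 WT mice lay between 0.560 and 1.30, and the part of choroid plexus in it was not tested. Lama2, a chain of the laminin that vessels and endfeet share, had a log2 fold change of -0.22 (edgeR adjusted p = 0.859).

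The connexins Gja1 and Gjb6 form the gap junctions between astrocytes. Gja1 lies on chromosome 10 from 56377330 to 56402513 on the plus strand (ENSMUSG00000050953), and its FPKM was 20.5, 25.5, 23.95 and 27.2 in WT mice and 23.6, 25.6, 23.2 and 28.7 in 16p11.2+/- mice. The groups covered nearly the same range. The mean was 24.3 ± 2.84 (SD, n = 4 WT mice) and 25.3 ± 2.52 (SD, n = 4 16p11.2+/- mice), with a log2 fold change of 0.04 (standard error 0.10, edgeR adjusted p = 0.942), which was -0.025 without WT-1015.

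Gjb6 lies on chromosome 14 from 57123303 to 57133611 on the minus strand (ENSMUSG00000040055), and its FPKM was 20.0, 27.1, 20.4 and 31.5 in WT mice and 24.4, 23.7, 27.6 and 35.4 in 16p11.2+/- mice. The highest mouse of each group was the same as for Gja1, WT-1063 and DF-1062. The mean was 24.7 ± 5.54 (SD, n = 4 WT mice) and 27.7 ± 5.35 (SD, n = 4 16p11.2+/- mice), with a log2 fold change of 0.14 (standard error 0.16, edgeR adjusted p = 0.876), which was -0.22 with the oligodendrocyte score as a covariate. The ratio of Gja1 to Gjb6 FPKM was 1.02, 0.939, 1.18 and 0.864 in WT mice and 0.968, 1.08, 0.840 and 0.811 in 16p11.2+/- mice, so both were made at nearly equal levels, and the ratio did not differ beyond the spread between mice (exact permutation p = 0.457).

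Of 22 connexin and pannexin genes 11 were tested and 0 passed the adjusted threshold, with 1 gene (9.09%, beside 4.32% of all genes) at an unadjusted p under 0.05 and a median log2 fold change of 0.16. That gene was Gja5, a connexin of arterial endothelium, at an FPKM of 0.278 ± 0.0697 (SD, n = 4 WT mice) and 0.144 ± 0.0535 (SD, n = 4 16p11.2+/- mice) (log2 fold change -0.96, edgeR unadjusted p = 0.0130, adjusted p = 0.859). Gjc3, a connexin of myelinating glia, had a log2 fold change of -0.22 (adjusted p = 0.859).

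Gfap had the largest estimate of the 10. It lies on chromosome 11 from 102887336 to 102900912 on the minus strand (ENSMUSG00000020932), and its FPKM was 30.0, 37.7, 29.6 and 29.9 in WT mice and 14.9, 25.9, 30.2 and 27.6 in 16p11.2+/- mice. Of the 16p11.2+/- mice 3 were below all WT mice and the remaining mouse, DF-1059, was inside the WT range, so the groups overlapped through 1 mouse. The mean was 31.8 ± 3.96 (SD, n = 4 WT mice) and 24.6 ± 6.74 (SD, n = 4 16p11.2+/- mice). The log2 fold change was -0.39 (standard error 0.19, edgeR unadjusted p = 0.0698, adjusted p = 0.859, exact permutation p = 0.114). Single mice moved it: the log2 fold change was -0.22 without DF-1018, which had a Gfap count of 958 where the highest mouse had 2439. Without DF-1059 the log2 fold change was -0.50 (edgeR unadjusted p = 0.0351). The exact permutation p was then 0.0286, the smallest that 3 mice against 4 can be given. Leaving out the only mouse that overlapped fixed that p in advance. The thalamic sum was 443 in DF-1018 and 79.0 in DF-1059, and with the thalamic score as a covariate the log2 fold change of Gfap was -0.31 (edgeR unadjusted p = 0.176).

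Among 12 tested genes of a list of 15 intermediate filaments, 9 had a log2 fold change above 0 and 3 below, with a median of 0.07, and 0 passed the adjusted threshold. Vim, the vimentin filament that reactive and immature astrocytes, vessel cells and ependymal cells share, was the only one with an unadjusted p under 0.05 (8.33% of those tested, beside 4.32% of all genes). Its FPKM was 7.39, 8.22, 5.65 and 7.34 in WT mice and 5.27, 6.07, 5.39 and 5.53 in 16p11.2+/- mice. Of the WT mice 3 were above all 16p11.2+/- mice, and WT-1061 lay within them. The log2 fold change of Vim was -0.38 (standard error 0.12, edgeR unadjusted p = 0.00967, adjusted p = 0.859, exact permutation p = 0.0571).

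Of 28 genes known to rise in reactive astrocytes 23 were tested, with 13 log2 fold changes above 0 and 10 below and a median of 0.08. None passed the adjusted threshold in edgeR, and Vim was again the only one under 0.05 unadjusted (4.35%, beside 4.32% of all genes). B3gnt5, an enzyme of sugar chain synthesis, had a log2 fold change of -0.61 (unadjusted p = 0.0916) at an FPKM of 0.389 in WT and 0.257 in 16p11.2+/- striatum. Psmb8, an immunoproteasome subunit, had a log2 fold change of 0.56 (unadjusted p = 0.134) at 0.356 and 0.533.

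Aldh1l1 encodes a folate enzyme, formyltetrahydrofolate dehydrogenase, whose promoter is widely used to label astrocytes. It lies on chromosome 6 from 90486427 to 90600203 on the plus strand (ENSMUSG00000030088), and its FPKM was 10.5, 11.98, 11.6 and 13.5 in WT mice and 10.9, 13.2, 14.6 and 14.1 in 16p11.2+/- mice. The lowest mice were of both groups, and the 2 highest were 16p11.2+/- mice. The mean was 11.9 ± 1.24 (SD, n = 4 WT mice) and 13.2 ± 1.63 (SD, n = 4 16p11.2+/- mice), with a log2 fold change of 0.13 (standard error 0.10, edgeR adjusted p = 0.859). Of its exon bases 13.4% lie in other annotated genes as well, and the strand setting of the counting is not given, so their reads cannot be told apart; the share was 3.49% for Glul, 1.44% for Slc1a2 and 0 for the other members.

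Of 24 folate and purine enzymes 23 were tested, 15 with a log2 fold change above 0 and 8 below (median 0.05), and 0 passed the adjusted threshold or an unadjusted p under 0.05. The smallest p-value was that of Atic, which completes purine synthesis, at an FPKM of 2.95 ± 0.269 (SD, n = 4 WT mice) and 3.70 ± 1.02 (SD, n = 4 16p11.2+/- mice) (unadjusted p = 0.0869).

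S100b encodes a calcium-binding protein of astrocytes that part of the oligodendrocytes also make. It lies on chromosome 10 from 76253853 to 76261159 on the plus strand (ENSMUSG00000033208), and its FPKM was 66.9, 57.5, 79.3 and 81.1 in WT mice and 73.4, 94.7, 72.0 and 74.4 in 16p11.2+/- mice. Apart from DF-1037, which was the highest of all, the 16p11.2+/- mice lay inside the WT range. The mean was 71.2 ± 11.1 (SD, n = 4 WT mice) and 78.6 ± 10.8 (SD, n = 4 16p11.2+/- mice), with a log2 fold change of 0.12 (standard error 0.14, edgeR adjusted p = 0.874). With the oligodendrocyte score as a covariate it was 0.38 (edgeR unadjusted p = 0.0621), and with the thalamic score 0.016. Of 18 genes of the S100 family and its receptor 9 were tested, 4 with a log2 fold change above 0 and 5 below, and 0 passed the adjusted threshold or an unadjusted p under 0.05. S100a6 had the smallest p-value (log2 fold change -0.34, unadjusted p = 0.158).

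Sox9 encodes the transcription factor that drives the switch from neuron to glia production and stays on in adult astrocytes. It lies on chromosome 11 from 112782224 to 112787760 on the plus strand (ENSMUSG00000000567), and its FPKM was 9.56, 8.78, 8.81 and 11.03 in WT mice and 6.19, 10.3, 5.85 and 8.94 in 16p11.2+/- mice. DF-1018 and DF-1059 were below all WT mice, and DF-1037 and DF-1062 were within the WT range. The mean was 9.54 ± 1.05 (SD, n = 4 WT mice) and 7.82 ± 2.17 (SD, n = 4 16p11.2+/- mice), with a log2 fold change of -0.31 (standard error 0.18, edgeR unadjusted p = 0.116, adjusted p = 0.859). Without DF-1037 the log2 fold change was -0.47 (edgeR unadjusted p = 0.0138), and with the thalamic marker score as a covariate it was -0.52 (edgeR unadjusted p = 0.00806, adjusted p = 0.999). Other settings made it smaller. It was -0.22 without DF-1018 (edgeR unadjusted p = 0.282) and -0.19 without DF-1059 (edgeR unadjusted p = 0.303). With the choroid plexus score as a covariate it was -0.21 (edgeR unadjusted p = 0.243).

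Of 26 regulators of astrocyte formation 25 were tested, and 20 of these had a log2 fold change below 0 and 5 above, with a median of -0.23 beside -0.01 over all genes. None passed the adjusted threshold in edgeR, and 3 (12%) were lower at an unadjusted p under 0.05, beside 4.32% of all genes. Hey1, a target of Notch signalling, had an FPKM of 12.8 ± 1.72 (SD, n = 4 WT mice) and 10.6 ± 0.791 (SD, n = 4 16p11.2+/- mice) (log2 fold change -0.29). Nfia, which acts with Sox9 in early glial cells, had 9.85 ± 0.865 (SD, n = 4) and 8.67 ± 0.670 (SD, n = 4), with a log2 fold change of -0.20. Zbtb20, a zinc finger factor that promotes astrocyte formation, had an FPKM of 12.2, 12.6, 12.95 and 12.2 in WT mice and 11.8, 8.70, 11.5 and 10.3 in 16p11.2+/- mice, without overlap (log2 fold change -0.26). The edgeR unadjusted p-values were 0.0379, 0.0450 and 0.0486, and each adjusted p was 0.859. This list also holds Sox10, a factor of oligodendrocytes. Its FPKM overlapped, at 14.7, 11.1, 14.9 and 14.1 in WT mice and 8.41, 16.0, 9.74 and 13.8 in 16p11.2+/- mice (edgeR unadjusted p = 0.293). The summed oligodendrocyte markers did not overlap between groups (7599 to 10661 CPM in 16p11.2+/- against 12211 to 14090 in WT mice). The part of oligodendrocyte RNA, or of RNA from other tissue, in the list was not tested.

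**Figure D2:**
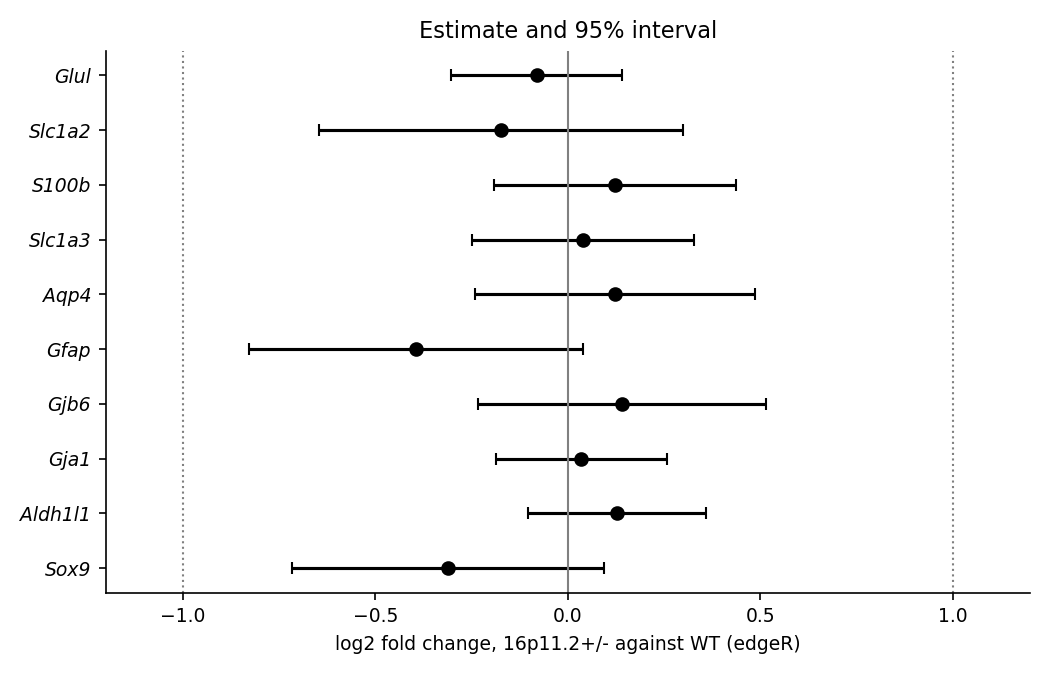
Log2 fold change of the 10 astrocyte genes (16p11.2+/- against WT, edgeR, horizontal axis), with points for the estimates and bars for the 95% intervals, ordered by mean FPKM. Every bar crosses 0 and stays between the dotted lines at -1 and 1, and Gfap and Sox9 lie farthest to the left at -0.39 and -0.31.

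A list of 40 other genes enriched in astrocytes was tested in full. None passed the adjusted threshold in edgeR, and 27 had a log2 fold change above 0 and 13 below, with a median of 0.12. An unadjusted p under 0.05 was reached by 3 genes (7.50%, beside 4.32% of all genes), all higher in 16p11.2+/- mice. Acsbg1, which activates long-chain fatty acids, had an FPKM of 26.8, 27.4, 35.0 and 34.2 in WT mice and 35.5, 39.7, 36.8 and 39.1 in 16p11.2+/- mice. These values did not overlap, and the log2 fold change was 0.27 (standard error 0.10, edgeR unadjusted p = 0.0286, adjusted p = 0.859). Slc25a18, a mitochondrial glutamate carrier, had an FPKM of 7.16, 9.70, 10.9 and 16.0 in WT mice and 12.9, 19.3, 13.7 and 29.1 in 16p11.2+/- mice. Its highest value in either group came from a mouse with a high thalamic sum, WT-1063 and DF-1062. The values did not follow that sum throughout: DF-1037, with the highest sum (844 CPM), had 19.3. DF-1018 (443 CPM) was below DF-1059 (79.0 CPM). The part of thalamic RNA in Slc25a18 was not tested. The log2 fold change of Slc25a18 was 0.75 (standard error 0.29, edgeR unadjusted p = 0.0306). For Gpr37l1, a receptor of astrocytes, the log2 fold change was 0.28 (standard error 0.11, edgeR unadjusted p = 0.0397).

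**Figure D3:**
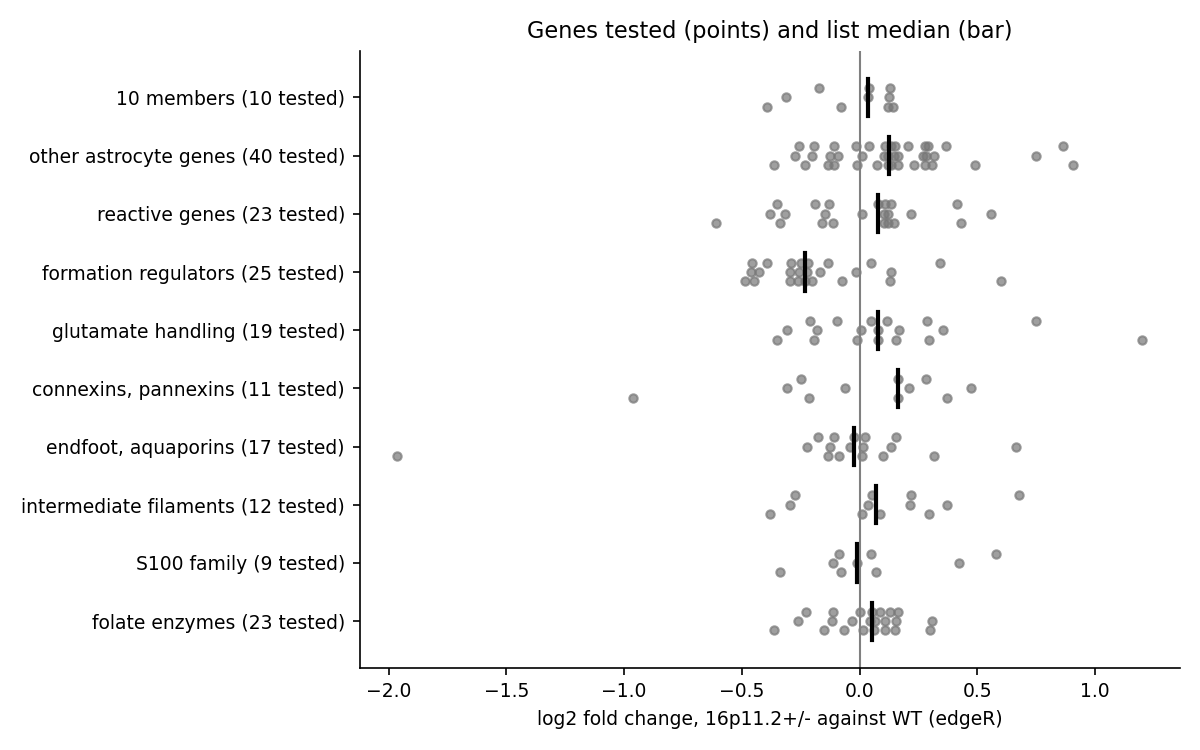
Log2 fold change (16p11.2+/- against WT, edgeR, horizontal axis) of each tested gene (points) in the 10 astrocyte genes and 9 related lists, with a bar at the median of each list. The medians lie between -0.23 for regulators of astrocyte formation and 0.16 for connexins and pannexins, and the point farthest to the left is Trpv4 at -1.97.

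By mean FPKM over the 8 mice the order was Glul at 577, Slc1a2 at 221, S100b at 74.9, Slc1a3 at 63.5, Aqp4 at 30.0, Gfap at 28.2, Gjb6 at 26.2, Gja1 at 24.8, Aldh1l1 at 12.5 and Sox9 at 8.68. The place of Aqp4 depends on the gene length used, which was 5082 bases where the GENCODE M21 exons hold 6233. The longer length would give Aqp4 a lower FPKM. The values of neighbours in this order did not overlap for 4 of 9 steps, from Glul to Slc1a2, from Slc1a2 to S100b, from Slc1a3 to Aqp4 and from Gja1 to Aldh1l1. S100b exceeded Slc1a3 in 7 of 8 mice, and Aldh1l1 exceeded Sox9 in all 8 although their ranges overlapped. In the 4 genes from Aqp4 to Gja1 neighbours were not ordered, since each exceeded the next in only 4 or 5 of 8 mice. The ends of this run were farther apart, with Aqp4 above Gja1 in every mouse but WT-1041 (23.7 against 25.5). Among all genes tested, Glul stood at percentile 99.9 of FPKM, Slc1a2 at 99.6, and the transcription factor Sox9, the lowest, at 69.9.

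The spread between mice of a group was near that of other genes. The median within-group SD of log2 CPM was 0.24 over the 10 genes and 0.25 over all genes tested. Slc1a2, at percentile 63.1, and Gfap, at 62.1, varied most, and Glul, at 5.49, varied least. The coefficient of variation of Gfap was 12.5% in WT and 27.4% in 16p11.2+/- mice, a difference in spread that was not tested.

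The 10 genes did not rise and fall as 1 block between mice. After the group means were subtracted from log2 CPM, Pearson's r over the 8 mice was above 0 for 26 of 45 pairs and below 0 for 19, with a median of 0.109 and a range from -0.703 to 0.859. No pair passed an adjustment over the 45 pairs (576 permutations of mice within groups, exact, smallest adjusted p = 0.391 for r and 0.402 for Spearman's rho), and 3 pairs by r and 4 by rho had an unadjusted p under 0.05. Aqp4 and S100b had r = 0.859 (exact permutation p = 0.0174) and rho = 0.762 (exact permutation p = 0.0590), with r = 0.697 without the 2 mice farthest from the median of Aqp4. Aqp4 and Sox9 had r = 0.817 (exact permutation p = 0.0104) and rho = 0.810 (exact permutation p = 0.0174), with r = 0.518 without the same 2. Slc1a2 and Glul had r = 0.760 (exact permutation p = 0.0295) and rho = 0.762 (exact permutation p = 0.0399), and r fell to 0.356 without the 2 mice farthest from the median of Slc1a2. The astrocyte connexins Gja1 and Gjb6 had r = 0.726 (exact permutation p = 0.0833) and rho = 0.786 (exact permutation p = 0.0503), with r = 0.475 without 2 mice. The glutamate transporters Slc1a2 and Slc1a3 had r = 0.261 (exact permutation p = 0.408) and rho = 0.143 (exact permutation p = 0.743), with r = 0.109 without 2 mice. The 2 mice with the highest Aqp4 in their group, WT-1063 and DF-1037, were those with the highest thalamic sum in their group, and sets of 4 mice with high and low thalamic sums were too few for a correlation within either.

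**Figure D4:**
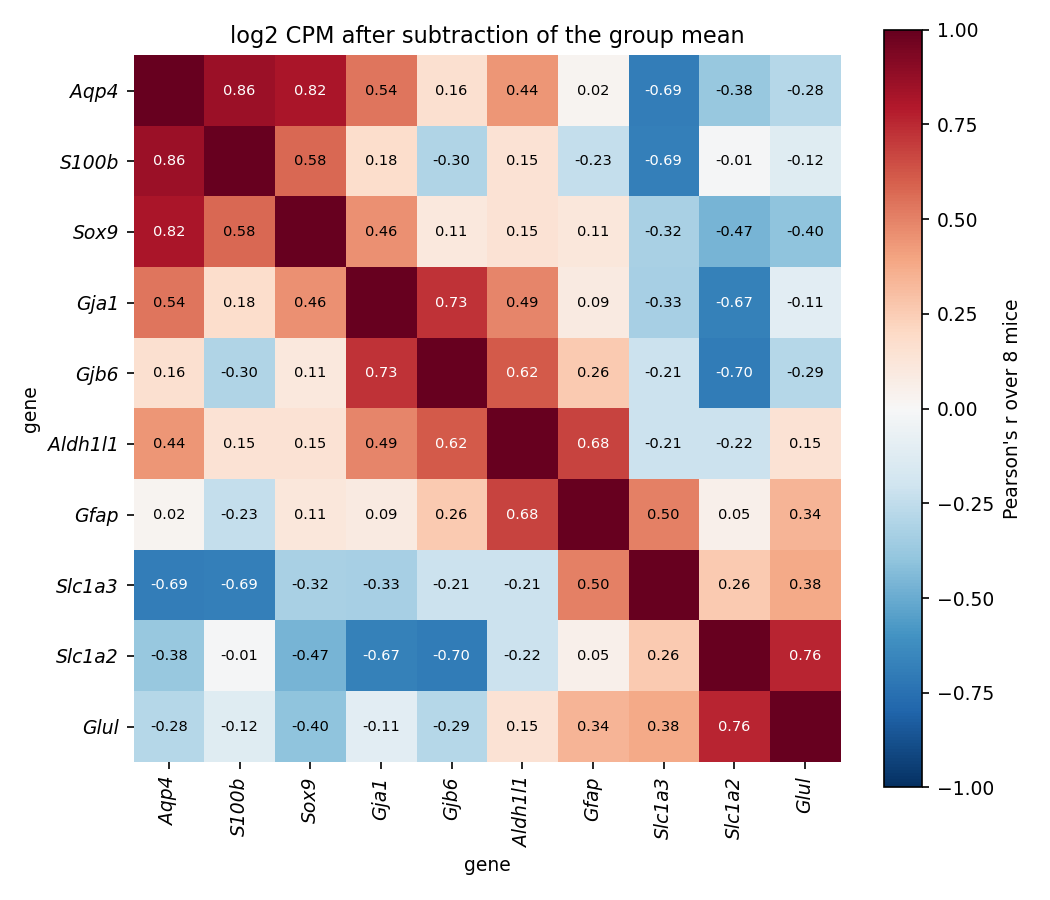
Pearson's r over 8 mice for each pair of the 10 astrocyte genes (both axes list genes), computed on log2 CPM after the group mean was subtracted, with red above 0 and blue below. Aqp4, S100b and Sox9 have r between 0.58 and 0.86 with each other, and Slc1a2 has r = -0.67 with Gja1 and -0.70 with Gjb6. Without the 2 mice farthest from the median of Slc1a2, these were -0.27 with Gja1 and 0.42 with Gjb6, so the sign with Gjb6 turned.

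The 4 mice with thalamic sums of 443 CPM or more also had the 4 lowest Slc1a2 values of the 8, 185 in the WT mouse and 213, 225 and 141 in the 16p11.2+/- mice. The other 4 mice had a Slc1a2 FPKM of 249, 255 and 243 in WT mice and of 256 in the 16p11.2+/- mouse. Within the first set the WT value lay between the 16p11.2+/- values, and within the second the 16p11.2+/- value lay just above the WT values. Aqp4 was highest in 3 of the 4 mice with much thalamic RNA, at 36.1, 39.0 and 32.8, and was 26.4 in DF-1018. Sox9 was highest in WT-1063 and DF-1037. Since 3 of the 4 are 16p11.2+/- mice, thalamic RNA and genotype are partly confounded. With the thalamic score as a covariate the log2 fold change was -0.011 for Slc1a2, 0.18 for Slc1a3, -0.048 for Aqp4, -0.52 for Sox9 and -0.31 for Gfap. It was -0.047 for Glul, 0.016 for S100b, -0.037 for Gja1, 0.065 for Gjb6 and 0.11 for Aldh1l1, and no adjusted p was under 0.05.

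**Figure D5:**
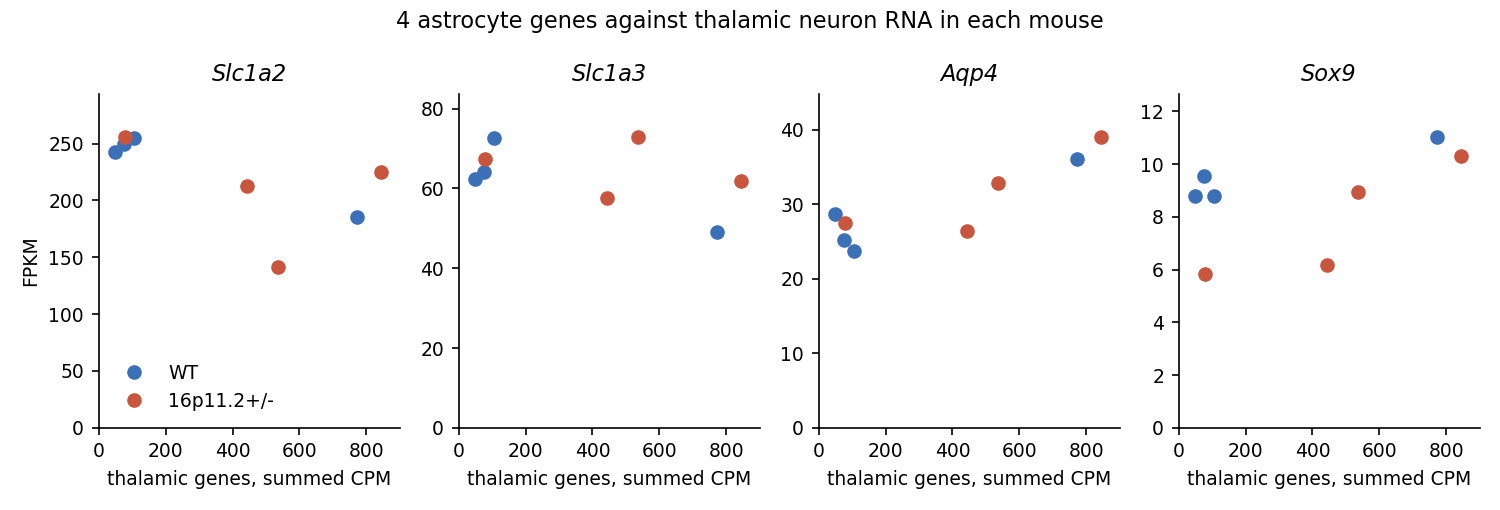
FPKM of Slc1a2, Slc1a3, Aqp4 and Sox9 (vertical axes, each from 0) against the summed CPM of 6 thalamic neuron genes (horizontal axes), with 1 point per mouse, blue for WT and red for 16p11.2+/-. The 4 mice at 443 CPM or more hold the 4 lowest Slc1a2 values and 3 of the 4 highest Aqp4 values.

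For each member the 3 tested genes with the most similar log2 CPM over the 8 mice were taken, by Pearson's r, as a description of 8 libraries. Slc1a2 was most like Rbfox3 (0.990), which encodes the neuronal nuclear marker NeuN, Mal2 (0.990) and Tmem121b (0.988). Aqp4 was most like Cycs (0.978), the mitochondrial cytochrome c, Cuta (0.974) and Slc25a3 (0.972), a mitochondrial phosphate carrier. S100b was most like Ttc39b (0.978), Glrb (0.963), a glycine receptor subunit, and Acot13 (0.958). Sox9 was most like Srsf10 (0.991), a splicing factor, Mylpf (0.954) and Rnf181 (0.945). Slc1a3 was most like Zmiz1os1 (0.975), Timp1 (0.975) and Dcx (0.972), a microtubule protein of immature neurons. Gja1 was most like Tmem135 (0.961), Sec24c (0.958) and P2rx3 (0.951), and Gjb6 was most like Gm36529 (0.969), Gtf2i (0.969) and Gm49329 (0.965). Glul was most like Osgin2 (0.973), Pfdn5 (0.970) and Ifrd1 (0.967), Aldh1l1 was most like Fbxw4 (0.969) and Harbi1 (0.946), and Gfap was most like Gm26765 (0.948), Gm26588 (0.934) and Acrbp (0.934). None of the genes named here as most like a member was itself a member.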

How the data were processed

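The authors trimmed reads, mapped them with Hisat2 2.1.0 and deposited raw counts per gene and mouse, made with Htseq-count. The authors also deposited FPKM per gene and mouse, and its implied gene length equalled the GENCODE M21 exon length within 0.5% for 96.0% of 17878 genes compared, and for 9 of the 10 members (for Aqp4 it was 5082 against 6233 bases). The labels' processing notes name Bowtie 0.12.2 with mm8 and mm9. The genome build, annotation and strand setting behind the counts are not given in the sources used here. The authors' DESeq2 1.28.1 comparison table (group means, fold changes, p-values) and FPKM bin summary were not used.

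All 55032 genes of 8 mice were filtered (filterByExpr, minimum count 10, minimum total 15) and 18294 entered the quasi-likelihood test of edgeR 4.0.16 (R 4.3.3, TMM, Benjamini-Hochberg adjustment, threshold 0.05), which was also tested on simulated data. Intervals are 95%. For FPKM, two-sided exact permutation tests ran over 70 assignments. Correlations used log2 CPM (prior count 2). Mice of 1 group differed by a chi-square of 8.82 to 62.9 per degree of freedom, above sampling noise, and each counted as 1 sample. P-values of group differences set the difference against the spread between these mice, and the labels give no batch.

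Members and lists were chosen with earlier results of these data known. Named were all members, of each list at most the 3 genes of smallest p, the deleted genes, and the 3 genes most like each member, of which 1 is not reported here. Alternatives were DESeq2 1.42.0, limma 3.58.1 (voom on counts, trend on log2 of FPKM plus 1 or 0.1), RLE factors, library totals, other filters, each mouse left out, CPM, and marker scores as covariates, of which the ependymal and cortical scores were added after seeing the data. Promoter sequences are from RefSeq.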

Additional observations from a re-analysis of the deposited data

Results flagged for a closer look

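In groups of 4 mice, a value was picked out where its gap to the nearest other mouse took a larger share of the range of the group than Dixon's 95% critical value. This held for 10 of 66 groups looked at, and chance alone picks about 1 in 20. Gfap FPKM was 37.7 in WT-1041 against 29.6 to 30.0 in the other WT mice (gap 0.948 of the range), so the WT values without this mouse were closely spaced. S100b FPKM was 94.7 in DF-1037 against 72.0 to 74.4 in the others (0.895). The Slc1a2 to Slc1a3 ratio was 1.94 in DF-1062 against 3.64 to 3.80 (0.917). Nfia FPKM was 11.1 in WT-1041 against 9.35 to 9.54 (0.893). Trpv4 FPKM was 6.91 in WT-1063 against 0.560 to 1.30 (0.884). Atic FPKM was 5.21 in DF-1062 against 3.08 to 3.44 (0.830).

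The summed marker levels of other tissue also stood apart in single mice. WT-1063 had 772 CPM of thalamic genes against 49.7 to 105 (0.923) and 5893 CPM of choroid plexus genes against 28.8 to 661 (0.892). DF-1037 had 186 CPM of choroid plexus genes against 41.4 to 57.9 (0.885). WT-1061 had the highest oligodendrocyte sum of the WT mice (0.909).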

How the results depend on the processing

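None of the 10 astrocyte genes passed the adjusted threshold under any setting run, and the members' adjusted p was 0.645 or higher under each. The count over all genes, 20, was 11 with the thalamic score and 3 with the oligodendrocyte score as a covariate, and 8 to 18 with each mouse left out (8 without DF-1018 or DF-1059, 10 without WT-1015 or WT-1061, 11 without WT-1041 and 12 without DF-1062). Directions turned for 5 genes. With the thalamic score Aqp4 was at -0.048 and Gja1 at -0.037, with the choroid plexus score Slc1a3 was at -0.048, and with the oligodendrocyte score Slc1a2 was at 0.25, Gjb6 at -0.22, Gja1 at -0.062 and Slc1a3 at -0.052. With each mouse left out the log2 fold change of Gja1 ranged from -0.025 to 0.090, that of Slc1a3 from -0.060 to 0.12 and that of Slc1a2 from -0.28 to 0.00037, and the FPKM ratio of 16p11.2+/- to WT ranged from 0.977 to 1.11 for Slc1a3 and from 0.990 to 1.08 for Gja1. The cause was not tested. Gfap reached an unadjusted edgeR p of 0.0461 with no filter. Other scalings moved the median of all genes by little. No paired analysis was made, since the sample information used here names no pairs of mice. With 4 mice a group, each of the 10 intervals of the astrocyte genes held 0. The widest limits were a fold of 0.564 for Gfap and of 1.43 for Gjb6, and differences within an interval may be present.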

Other observations

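Among the other glial and vessel lists, no gene was called by edgeR. Of 5 oligodendrocyte precursor genes 3 had a log2 fold change above 0 (median 0.04), with a summed level of 128 to 182 CPM in WT and 162 to 207 CPM in 16p11.2+/- mice. Of 7 microglial genes 6 were below 0 (median -0.14), with 228 to 320 CPM against 189 to 286 CPM. Of 7 endothelial and mural cell genes 6 were below 0 (median -0.05), with 369 to 458 CPM against 343 to 489 CPM. The sum of 6 ependymal genes was 20.8 to 52.3 CPM in WT and 22.4 to 50.6 CPM in 16p11.2+/- mice. Of 10 myelinating oligodendrocyte genes all 10 were below 0 (median -0.42), and 7 had an unadjusted p under 0.05, beside 4.32% of all genes tested. The summed level of the 10 astrocyte genes was 5639 to 6874 CPM in WT and 5199 to 6670 CPM in 16p11.2+/- mice, with the lowest value of each group in WT-1063 and DF-1062. Slc1a2 and Glul weighed most in this sum, with 365640 and 242480 reads over the 8 mice, before Slc1a3 with 68526. The mean log2 CPM, in which each gene weighs the same, gave another order. Among WT mice it was highest in WT-1063, at 7.82. Among 16p11.2+/- mice it was lowest in DF-1018, at 7.57, with DF-1062 at 7.72.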
